A study of Mus musculus with 7 samples.

Results

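Islet cell identity transcription factors are the DNA-binding proteins that separate the alpha, beta and delta cell fates of the pancreas. The 8 genes described here were chosen by name, by a rule that uses no measured value but with earlier results of these data known, as Irx1, Irx2, Pou3f4, Mafa, Nkx6-1, Nkx6-2, Mnx1 and Hhex. All 8 were found by their Ensembl gene identifiers among the 27138 features of the deposited count table, and all 8 were among the 16910 features with enough reads to be tested. The libraries were made from polyadenylated RNA of E15.5 mouse pancreas, a stage at which endocrine cells form in large numbers. The cKO group (3 libraries) carried Pdx1Cre together with mLINC00673fl/fl, alleles with loxP sites at 2610035D17Rik, which corresponds to the human long non-coding RNA LINC00673. The WT group (4 libraries) carried the same floxed alleles without Cre, and each library came from a separate animal. Pdx1Cre is active in the pancreatic epithelium, from which the islet cells arise, whereas a whole pancreas also holds mesenchyme, vessels, nerves and blood. Because WT embryos lacked the Cre transgene, an effect of the deletion cannot be told apart from one of the transgene itself.

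Endocrine cells of the pancreas leave a trunk epithelium under the transient factor Neurog3 and then acquire an alpha, beta, delta, PP or epsilon identity. Pax4 favours the beta and delta fates. The Iroquois homeodomain factors Irx1 and Irx2 and the POU factor Pou3f4 (Brn4) are found in alpha cells. Nkx6-1 is needed for the beta fate, Mnx1 (Hb9) for holding it, and Mafa activates the insulin genes as beta cells mature. Nkx6-2 is the close relative of Nkx6-1, with which it shares functions in the embryonic pancreas and the neural tube, and Hhex is needed for the delta fate. Several of these genes are also used elsewhere: Nkx6-1 in trunk progenitors, Hhex in liver and endothelium, and Mnx1 in motor neurons.

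Libraries held 14883918 to 17767373 counts. The deleted gene 2610035D17Rik averaged 2.55 ± 0.725 CPM in cKO (SD, n = 3) and 8.64 ± 0.497 CPM in WT (SD, n = 4), where CPM is the read count scaled to a common library total with TMM factors. Its groups did not overlap, and its edgeR adjusted p was 0.0902 (Benjamini-Hochberg), above 0.05. The 10 genes used to check the tissue label, among them the acinar enzyme gene Cpa1, Pdx1, Neurog3, Ins2 and Gcg, were read in every library. Sums over 12 liver genes were 1869, 328.4 and 333.8 CPM in cKO replicates 1 to 3 and 263.5, 333.3, 286.5 and 1256 CPM in WT replicates 1 to 4. cKO replicate 1 and WT replicate 4 therefore stood apart from the others, and they were also the highest of their groups in 13 acinar and duct genes (43160 CPM in cKO replicate 1 and 51260 CPM in WT replicate 4, against 25390 to 36550 CPM in the other 5 libraries).

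None of the 8 identity factors passed the test of a difference between cKO and WT pancreas. With edgeR's quasi-likelihood test, 0 of 8 passed a Benjamini-Hochberg adjusted p of 0.05, and 0 of 8 had an unadjusted p under 0.05. Over all tested features 0.00591% passed with edgeR and 1.38% had such an unadjusted p. DESeq2 and limma-voom also called 0 of 8, beside 0.0738% and 0.00591% of all features. The cKO and WT ranges overlapped for all 8, whereas they did not overlap for 2.73% of all features. In the fit, 5 of 8 were higher and 3 of 8 lower in cKO, with a median log2 fold change of 0.05 beside −0.01 for all tested features. Every adjusted p of the 8 was 1.00. In bulk tissue, fewer cells of a type and less RNA per cell cannot be told apart, which holds for every value below.

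Levels are compared between genes as CPM per kilobase (kb) of annotated exon. Nkx6-1 was the most abundant member, with 34.2 ± 6.16 CPM per kb in cKO (SD, n = 3) and 36.2 ± 0.987 CPM per kb in WT (SD, n = 4). It stood beside the other abundant epithelial and endocrine factors, Pdx1 at 31.2 CPM per kb in cKO and 33.6 CPM per kb in WT, and Neurog3 at 34.7 CPM per kb in cKO and 37.6 CPM per kb in WT. Mafa was next, with 10.3 ± 2.44 CPM per kb in cKO and 8.50 ± 1.42 CPM per kb in WT (SD, n = 3 and n = 4). Its ranges lay apart from those of Nkx6-1 above and Nkx6-2 below in each group.

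Nkx6-2, Irx1, Irx2, Mnx1 and Pou3f4 followed, between 2.76 and 4.13 CPM per kb in cKO and between 2.98 and 3.81 CPM per kb in WT. Each of these 5 overlapped its neighbour in that order, so their order is not resolved. Hhex was last, with 0.955 ± 0.0178 CPM per kb in cKO and 1.34 ± 0.919 CPM per kb in WT. The order of all 8 was the same in both groups, but the place of Hhex rested on the length used. Its annotated exons merge into 2 blocks of 5056 bases in all, and with its longest coding transcript of 1.80 kb it had 2.68 CPM per kb in cKO and 3.75 CPM per kb in WT.

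**Figure D1:**
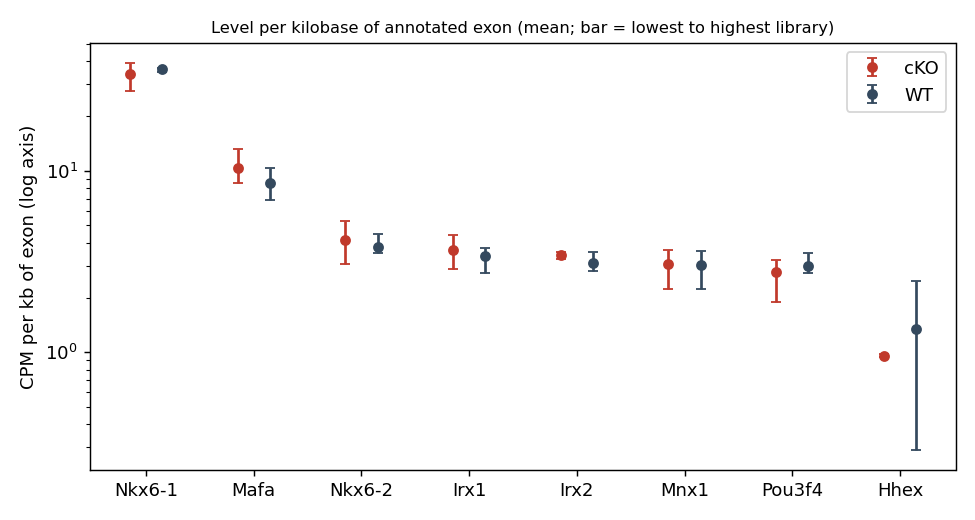
Level of each identity factor in CPM per kb of annotated exon (log axis), cKO in red and WT in blue, with points at group means and bars from the lowest to the highest library. Nkx6-1 and Mafa lie above the others at 8.50 CPM per kb or more, and Hhex has the longest bar, in WT.

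Iroquois, POU and Nkx6 relatives of these factors were scarcer, whereas Maf relatives were nearer to Mafa in level. Irx1 had 3.64 CPM per kb in cKO and 3.40 CPM per kb in WT, whereas the highest of the other Iroquois genes tested here, Irx3, had 0.418 CPM per kb in cKO and 0.543 CPM per kb in WT. Pou3f1, Pou3f2 and Pou3f3 were each at or below 0.218 CPM per kb in both groups, and Nkx6-3 had 0.423 CPM per kb in cKO and 0.393 CPM per kb in WT. The large Maf gene Maf had 8.88 CPM per kb in cKO and 8.99 CPM per kb in WT, and the small Maf protein gene Mafg 9.42 CPM per kb in cKO and 9.91 CPM per kb in WT, beside 10.3 and 8.50 CPM per kb of Mafa in cKO and WT. The small Maf genes Mafk (6.91 CPM per kb in cKO and 6.66 CPM per kb in WT) and Maff (6.39 and 5.79 CPM per kb) were below Mafa in both groups. Of the 12 family relatives compared, 8 were tested and 0 of 8 passed with edgeR (0 of 8 with an unadjusted p under 0.05), 5 being higher and 3 lower in the cKO fit. Those with the smallest unadjusted p were Pou3f1 (log2 fold change 0.92, SE 0.546), Irx3 (−0.38, SE 0.344) and Maff (0.14, SE 0.163).

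Irx1 (ENSMUSG00000060969, chromosome 13), an Iroquois factor of alpha cells, had 7.56, 9.40 and 11.6 CPM in cKO replicates 1 to 3 and 9.12, 9.82, 7.17 and 9.53 CPM in WT replicates 1 to 4. The groups overlapped, and the cKO libraries held both the highest value and one of the lowest. The log2 fold change was 0.10 (SE 0.187, 95% interval −0.32 to 0.52). Irx2 (ENSMUSG00000001504), which lies on the same chromosome, had 11.6, 10.8 and 11.4 CPM in cKO and 9.17, 11.7, 10.1 and 9.95 CPM in WT. All cKO values were above 3 of the 4 WT values and below WT replicate 2. This was the smallest spread of the alpha-type factors, and the interval of the difference (log2 fold change 0.14, SE 0.131, −0.16 to 0.43) corresponds to 0.896 to 1.35 times the WT level.

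Pou3f4 (ENSMUSG00000056854, X chromosome), the POU factor of the alpha lineage, had 5.55, 9.40 and 9.27 CPM in cKO replicates 1 to 3 and 8.04, 10.3, 8.21 and 8.40 CPM in WT replicates 1 to 4. cKO replicate 1 was below every other library, whereas the other cKO libraries were within the WT range. The log2 fold change was −0.11 (SE 0.209, 95% interval −0.59 to 0.36), and it was 0.10 without cKO replicate 1. The highest value, in WT replicate 2, belonged to the only library with Xist reads in number (20326 counts, against 1 to 8 counts in the other 6) and with 0 counts over 4 Y-linked genes. Whether embryo sex had a part in this value was not tested.

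Nkx6-1 (ENSMUSG00000035187, chromosome 5), the factor of trunk progenitors and beta cells, had 85.9, 123 and 113 CPM in cKO replicates 1 to 3 and 115, 115, 109 and 115 CPM in WT replicates 1 to 4. The WT embryos were nearly alike, and the cKO embryos lay on both sides of them, with cKO replicate 1 well below the rest. The SD of log2 CPM was 0.272 in cKO and 0.0398 in WT, and 94.8% of the 3698 features within a factor of 2 of its level had a larger WT SD. At 1634 to 2139 counts in the WT libraries, counting error was not separated from this small WT SD. The log2 fold change was −0.08 (SE 0.117), with an interval of 0.786 to 1.13 times the WT level, the narrowest among the beta-type factors. Without cKO replicate 1 it was 0.06.

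Mafa (ENSMUSG00000047591, chromosome 15), the activator of the insulin genes, had 25.4, 36.0 and 23.6 CPM in cKO and 22.0, 19.0, 23.9 and 28.3 CPM in WT. The highest library was cKO replicate 2, and the other cKO libraries were within the WT range. Its log2 fold change of 0.28 (SE 0.178, 95% interval −0.12 to 0.69) was the highest of the 8 and had the smallest unadjusted p (0.147, edgeR; exact permutation p = 0.286, two-sided). It was 0.07 without cKO replicate 2 and 0.38 without WT replicate 4. Mnx1 (ENSMUSG00000001566, chromosome 5), which holds beta identity, had 5.02, 8.22 and 7.39 CPM in cKO and 6.53, 8.15, 7.57 and 5.01 CPM in WT. Low and high values occurred in each group, cKO replicate 1 and WT replicate 4 being the low ones, and the log2 fold change was 0.01 (SE 0.232).

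Nkx6-2 (ENSMUSG00000041309, chromosome 7), the relative of Nkx6-1, had 5.84, 7.75 and 10.04 CPM in cKO replicates 1 to 3 and 7.02, 6.72, 6.82 and 8.54 CPM in WT replicates 1 to 4. The cKO values spanned the whole WT range and beyond it on both sides (log2 fold change 0.12, SE 0.205), and the value was −0.10 without cKO replicate 3. Of its 1907 exon bases, 246 overlap exons of Inpp5a on the opposite strand. No strand-keeping step is described for these libraries, so reads in that stretch cannot be assigned between them.

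Hhex (ENSMUSG00000024986, chromosome 19), the delta cell factor, varied more between WT embryos than any other member. It had 4.84, 4.73 and 4.91 CPM in cKO replicates 1 to 3 (82, 80 and 89 counts) and 1.46, 8.09, 5.09 and 12.4 CPM in WT replicates 1 to 4 (27, 136, 88 and 176 counts). The cKO values were nearly alike, below 3 of the 4 WT values and above WT replicate 1, and the ends of the WT range differed 8.53-fold. The SD of log2 CPM was 0.0264 in cKO and 1.29 in WT, and 2.79% of the 3121 features within a factor of 2 of its level had a larger WT SD. Counting error at 80 to 89 counts is larger than this cKO SD, which therefore does not measure how alike the cKO embryos were. The log2 fold change was −0.48 (SE 0.596), with an interval of 0.272 to 1.89 times the WT level. It was −0.82 without WT replicate 1 and −0.02 without WT replicate 4.

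Hhex is also known from liver and endothelium. Among the WT libraries the highest in Hhex, replicate 4, was the highest in liver genes (1256 CPM). The library highest of all 7 in liver genes, cKO replicate 1 (1869 CPM), had 4.84 CPM of Hhex. The sum of 11 endothelial genes was 647.6 to 739.6 CPM in cKO and 634.3 to 779 CPM in WT. The somatostatin gene Sst, the product of delta cells, had 64.3, 57.1 and 34.4 CPM in cKO and 33.5, 30.5, 38.9 and 53.8 CPM in WT. The part of liver, endothelial or delta cells in the Hhex values was not tested.

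**Figure D2:**
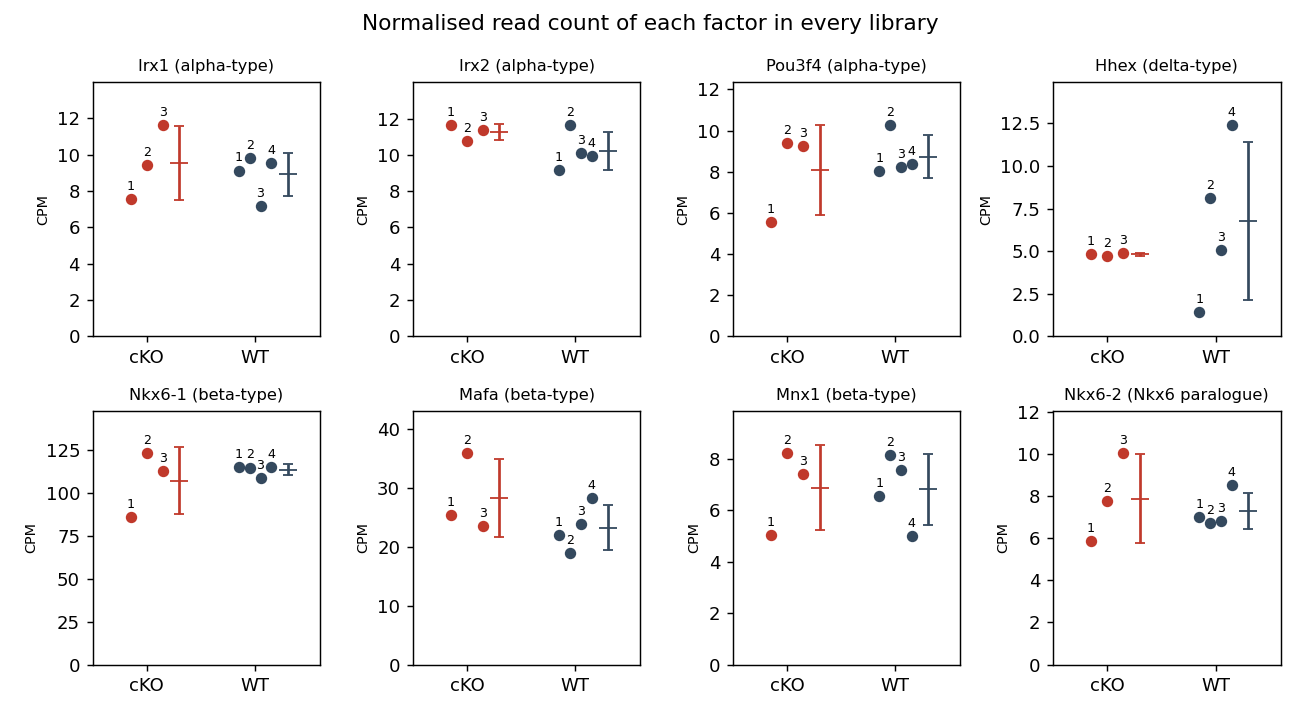
CPM of each identity factor in every library (points, numbered by replicate), cKO in red on the left and WT in blue on the right, with mean ± SD (n = 3 and n = 4) beside them. The groups overlap in all 8 panels, cKO replicate 1 is the lowest library for Pou3f4, Nkx6-1 and Nkx6-2, and the WT values of Hhex reach from 1.46 to 12.4 CPM.

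The question of alpha against beta factors was addressed by the mean log2 CPM of Irx1, Irx2 and Pou3f4 minus that of Mafa, Nkx6-1 and Mnx1 in each library. This balance was −1.49, −1.74 and −1.33 in cKO replicates 1 to 3 and −1.53, −1.30, −1.67 and −1.45 in WT replicates 1 to 4. The groups overlapped throughout. The mean was −1.52 ± 0.210 in cKO (SD, n = 3) and −1.49 ± 0.156 in WT (SD, n = 4), a difference of −0.03 (SE 0.144), which is smaller than the spread within either group. No p is given for this score, since it combines several members.

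The alpha-type mean was 3.25 ± 0.226 log2 CPM in cKO and 3.22 ± 0.141 in WT (SD, n = 3 and n = 4). The beta-type mean was 4.77 ± 0.286 log2 CPM in cKO and 4.71 ± 0.0399 in WT. In cKO replicate 1 each side was lower than in any other library, at 3.00 for the alpha-type and 4.49 for the beta-type factors. In that library the balance was −1.49, within the WT range.

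**Figure D3:**
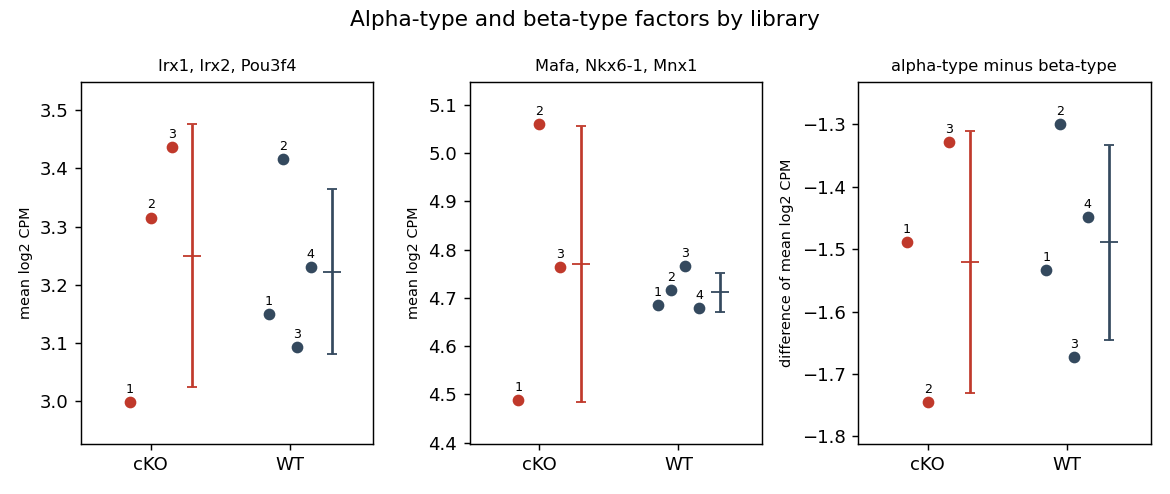
Mean log2 CPM of the alpha-type factors, of the beta-type factors and their difference in every library (points, numbered by replicate), cKO left in red and WT right in blue, with mean ± SD (n = 3 and n = 4); the axes do not start at 0. cKO replicate 1 is the lowest library on each side, and the difference ranges from −1.74 to −1.33 in cKO and from −1.67 to −1.30 in WT.

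The low values of cKO replicate 1 were shared by most of the islet factors. It was the lowest library for Pou3f4, Nkx6-1 and Nkx6-2, and for 15 of 20 other islet transcription factors, and the highest for 0 of either set. For Irx2 and Mafa, by contrast, it was not low, with 11.6 and 25.4 CPM. The mean log2 CPM of 5 factors common to all endocrine cells, Pax6, Rfx6, Neurod1, Nkx2-2 and Insm1, was 4.53, 5.06 and 5.11 in cKO replicates 1 to 3 and between 4.94 and 5.05 in the WT libraries. The hormone genes Gcg and Ins2 were not low in that library, with 580.5 CPM and 765.3 CPM there, against 464.1 to 620.7 CPM and 429.2 to 779 CPM in the other 6. The sum of 9 hormone genes was highest there (2031 CPM, against 1373 to 2006 CPM in the others), and so was Sst (64.3 CPM). Of these hormone genes only the gastrin gene Gast was lowest there, with 3.60 CPM against 3.72 to 4.94 CPM in the others. It was read with few counts, 61 there and 65 to 86 in the others. The same library had the highest sum of 12 neuronal genes (1557 CPM, against 334.7 to 1239 CPM in the others). The part of liver, acinar or nerve RNA in its low factor values was not tested.

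Set against those 5 endocrine factors, Nkx6-1 varied less between the cKO libraries but not between the WT libraries. Its log2 level relative to them averaged 1.83 ± 0.107 in cKO (SD, n = 3) and 1.85 ± 0.0513 in WT (SD, n = 4), a difference of −0.02 (SE 0.0666; exact permutation p = 0.857, two-sided). The SD in cKO was 0.107 in place of 0.272 for its log2 CPM, and in WT 0.0513 in place of 0.0398. The cKO SD was also smaller for Pou3f4 (0.110 in place of 0.426), Mnx1 (0.106 in place of 0.368), Irx1 (0.139 in place of 0.308) and Nkx6-2 (0.161 in place of 0.385). Among the cKO libraries, the 5 endocrine factors and all of these members were lowest in replicate 1. The smaller cKO SDs therefore rest largely on that library. The cKO SD was larger for Irx2 (0.364 in place of 0.0567), Hhex (0.326 in place of 0.0264) and Mafa (0.390 in place of 0.324). In WT the SD was larger than that of log2 CPM for every member but Mafa (0.238 in place of 0.239), as for Pou3f4 (0.196 in place of 0.162) and Mnx1 (0.320 in place of 0.304). Relative to these factors, the 8 differences had exact permutation p between 0.2 and 1, the smallest for Mafa (0.35, SE 0.254), and the groups overlapped for all 8. The smallest p this design allows is 0.0286.

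Pou3f4 and Nkx6-1 had the smallest difference in pattern of the 28 pairs of members, Pou3f4 from the alpha and Nkx6-1 from the beta side. The root mean square (RMS) difference of their log2 CPM, each centred on its mean over the 7 libraries, was 0.139. About its own mean, the RMS was 0.261 for Pou3f4 and 0.155 for Nkx6-1. A gene that did not vary would thus lie nearly as close to Nkx6-1, and the measure favours genes that vary little. Across 134 other islet and cell type genes, the nearest to Pou3f4 was Pdx1 (0.0604), the master factor of the pancreas. The nearest to Nkx6-1 was Neurod1 (0.0731), a factor of all endocrine cells, to Irx2 the glucagon gene Gcg (0.0860), to Mafa the islet amyloid gene Iapp (0.129) and to Mnx1 the endocrine progenitor factor Prox1 (0.140). Genes of other cell types were nearly as close: the duct keratin Krt7 to Irx2 (0.0876), the leukocyte gene Ptprc to Mafa (0.135) and the mesenchymal receptor gene Pdgfrb to Nkx6-1 (0.0921). Nearest to Irx1 among the genes reported here was Spp1 (0.128), from the acinar and duct list. Nkx6-2 was nearest to the gastrin gene Gast (0.116). Hhex had no close match, its nearest being the brush border gene Vil1 at 0.631. These values describe 7 libraries that share their scaling, and they say nothing of shared control.

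The promoters of Pou3f4 and Nkx6-1, the pair with the smallest RMS difference, and of Hhex, the member least like the rest, are shown for comparison. Each is the 250 bases before the RefSeq start on GRCm38.p6, written 5′ to 3′ on the gene's strand, and capitals mark the CCAAT box and its reverse complement ATTGG. They lie at chrX:110814129-110814378 (plus strand, Pou3f4), chr5:101664712-101664961 (minus strand, Nkx6-1) and chr19:37434591-37434840 (plus strand, Hhex).
Pou3f4: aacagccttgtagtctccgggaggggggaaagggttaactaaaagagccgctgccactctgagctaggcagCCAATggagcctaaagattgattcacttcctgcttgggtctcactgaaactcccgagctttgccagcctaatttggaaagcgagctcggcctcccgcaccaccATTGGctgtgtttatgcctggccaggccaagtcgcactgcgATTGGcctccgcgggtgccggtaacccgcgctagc
Nkx6-1: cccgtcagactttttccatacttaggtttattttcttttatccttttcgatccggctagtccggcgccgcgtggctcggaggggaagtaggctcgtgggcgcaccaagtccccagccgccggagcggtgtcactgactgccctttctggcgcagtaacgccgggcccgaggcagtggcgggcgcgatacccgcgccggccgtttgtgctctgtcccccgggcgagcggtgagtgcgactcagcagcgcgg
Hhex: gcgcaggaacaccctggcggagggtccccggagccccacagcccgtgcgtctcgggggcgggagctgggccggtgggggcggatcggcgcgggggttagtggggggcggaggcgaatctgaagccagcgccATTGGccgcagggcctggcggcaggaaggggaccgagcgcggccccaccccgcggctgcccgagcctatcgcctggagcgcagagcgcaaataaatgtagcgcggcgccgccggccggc
Of the 8 members, 6 had a promoter in the RefSeq table. CCAAT, on either strand, stood 3 times in the window of Pou3f4, 0 times in that of Nkx6-1 and 1 time in that of Hhex. It also stood 3 times in that of Mnx1, 2 times in that of Nkx6-2 and 1 time in that of Irx2. It was found in 33.8% of all 32851 promoter windows of that length. TATAAA was in 0 of these 6 windows and in 12.4% of all. The homeodomain core TAAT, on either strand, stood 1 time each in those of Pou3f4, Mnx1 and Nkx6-2 and in 54.9% of all. Pou3f4 and Nkx6-1 thus differed in the CCAAT letters of this window.

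**Figure D4:**
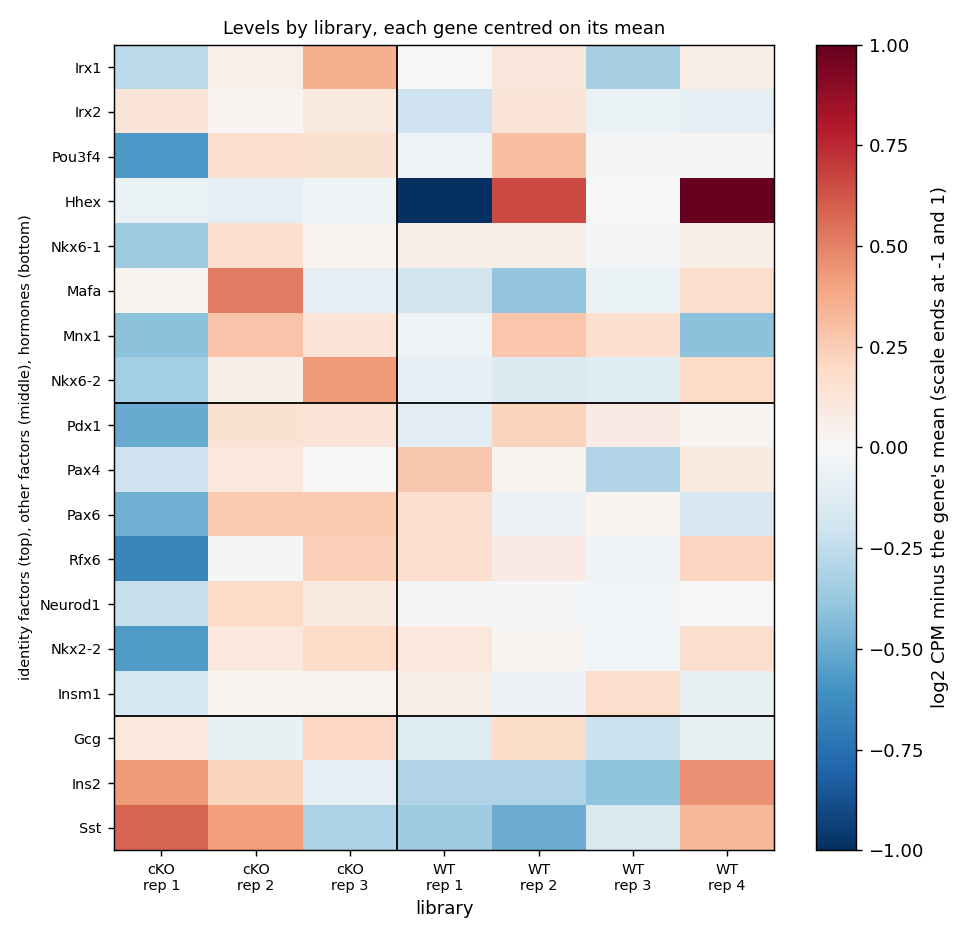
Log2 CPM minus the gene's mean for the identity factors, for other islet factors and for 3 hormones (rows) in the cKO libraries (left) and the WT libraries (right). Red is above and blue below the gene's mean; the cKO replicate 1 column is blue for most factors, and Hhex has its darkest cells in WT replicates 1 and 4, at 1.46 and 12.4 CPM.

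None of the other islet genes tested with edgeR passed either. Of 20 other islet transcription factors, 0 passed with edgeR and 0 had an unadjusted p under 0.05, with 4 higher and 16 lower in cKO (median log2 fold change −0.06, beside −0.01 for all features). Pax4 had 6.44 ± 0.723 CPM in cKO (SD, n = 3) and 6.76 ± 1.09 CPM in WT (SD, n = 4). The log2 fold change was 0.06 for Pax6 (SE 0.180), −0.11 for Pdx1 (SE 0.160) and −0.06 for the LIM factor Isl1 (SE 0.240). The smallest unadjusted p belonged to Foxa1 (log2 fold change 1.01, SE 0.460), which had under 1 CPM in every library, and then to Rfx6 (−0.21, SE 0.196) and Neurog3 (−0.12, SE 0.114).

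Of 9 hormone genes, 0 passed with edgeR and 0 had an unadjusted p under 0.05, with 8 higher and 1 lower in the cKO fit and a median of 0.13. Gcg, the alpha cell hormone gene, averaged 571 ± 55.0 CPM in cKO and 520 ± 65.3 CPM in WT (SD, n = 3 and n = 4). Ins2 averaged 654 ± 117 CPM in cKO and 532 ± 165 CPM in WT. Those with the smallest unadjusted p were Iapp (log2 fold change 0.31, SE 0.140), Ppy (−0.50, SE 0.254) and Sst (0.41, SE 0.259). Of 12 effector genes of alpha, beta and delta cells, 10 were tested, 0 passed and 0 had an unadjusted p under 0.05, with 7 higher and 3 lower. The prohormone convertase genes Pcsk1 (0.21, SE 0.116) and Pcsk2 (0.15, SE 0.0925) and the retinol carrier gene Rbp4 (0.19, SE 0.117) led that list. Ucn3, a peptide gene of mature beta cells named after its values were seen, had too few reads for that test, with 8, 8 and 12 counts in cKO and 5, 2, 5 and 1 counts in WT. It was the only gene of the islet lists whose groups did not overlap (0.472 to 0.662 CPM in cKO and 0.0706 to 0.289 CPM in WT). Among all tested features, which do not include Ucn3, 2.73% did not overlap. The share among genes with so few reads is not given here. Its exact permutation p (0.0286, two-sided, the smallest possible) follows from that separation, seen before the gene was named, and is no further support. Ins2 and Sst were high in cKO replicate 1 and WT replicate 4, the libraries highest in acinar and liver genes. They were also high in cKO replicate 2 (663.9 and 57.1 CPM). That library had 36550 CPM of acinar and duct genes and 328.4 CPM of liver genes. The part of acinar or liver RNA in the Ins2 and Sst values was not tested.

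**Figure D5:**
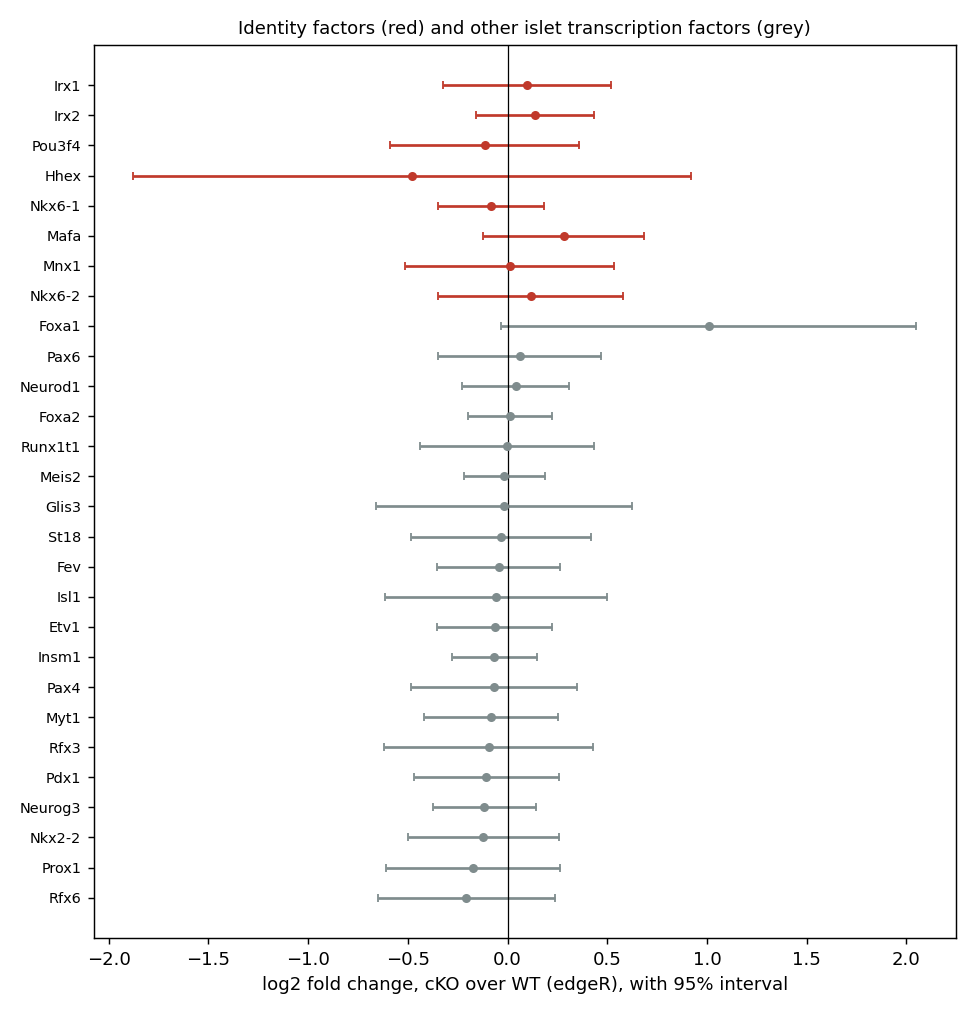
Log2 fold change of cKO over WT from edgeR with its 95% interval, for the 8 identity factors (red) and 20 other islet transcription factors (grey). Every interval includes 0, and that of Hhex, from −1.88 to 0.92, is the widest of the red ones.

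Markers of other cells that use these genes were also read. Among 5 motor neuron genes, Chat and Lhx3 were at 0 in some libraries, whereas Slc18a3, Isl2 and Slc5a7 were read in every library. Slc5a7 had 2.07 to 3.70 CPM in cKO and 2.96 to 4.28 CPM in WT. The sum of the 5 was 7.04 to 7.45 CPM in cKO and 7.44 to 10.7 CPM in WT. The part of motor neurons in the Mnx1 values was not tested. Of 11 genes of stomach and intestinal epithelium, 9 were in the table, 4 of them at 0 counts in some library, and the sum was 24.2 to 37.9 CPM in cKO and 24.7 to 44.8 CPM in WT. The sum of 12 mesenchymal genes was 7437 to 8306 CPM in cKO and 7468 to 9143 CPM in WT, that of 7 Schwann cell genes 46.9 to 77.1 CPM in cKO and 35.04 to 77.1 CPM in WT, and that of 8 macrophage genes 284 to 361 CPM in cKO and 251 to 405 CPM in WT. Each of these ranges overlapped between the groups, and 0 of the tested markers in these lists passed with edgeR.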

How the data were processed

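The authors deposited raw read counts per feature for 7 libraries (3 cKO, 4 WT), and no per-sample column was left unused. The submitters' processing notes name HISAT2, StringTie, featureCounts and mm39, with no roles, and with versions, settings and the handling of multi-mapping reads not given in the sources used here. Per the labels' protocols, RNA was selected on poly-T beads and prepared with an unstranded NEBNext Ultra workflow, as far as described. Columns were matched by group and replicate number; the header of WT replicate 4 carries another number after its group name than the rest, with no meaning given. Features without a gene identifier took 0.206% of the counts and stayed in the fit.

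Symbols came from the GENCODE M21 identifiers (GRCm38, another build than the one named), used for names, exon lengths and overlaps. Promoters came from RefSeq (GRCm38.p6). The test was edgeR 4.0.16's, run in R 4.3.3 (filterByExpr, TMM with factors 0.952 to 1.04, robust glmQLFit, glmQLFTest, group as the only term, Benjamini-Hochberg over 16910 features), with DESeq2 1.42.0 and limma 3.58.1 as alternatives. SEs were derived from the coefficient and F statistic. Log2 CPM used a prior count of 2. For single values, an exact permutation test (two-sided) went over all 35 divisions of the libraries. The fit was checked on simulated data, where it missed part of the changes put in and most of the smallest ones. No pair of libraries was alike within sampling noise, the chi-square being 11.1 to 50.8 per degree of freedom. The members and lists were chosen with earlier results of these data known. Some genes are not reported here and were left out of the lists. The rule for named genes gave the 8 members, from each list the 3 genes lowest in p, and fixed lineage genes; of the cell type lists, sums are given in place of names. Alternatives were other scalings, filters and tools, a replicate block, leaving out libraries, and levels relative to endocrine factors.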

Additional observations from a re-analysis of the deposited data

Results flagged for a closer look

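In 7 of 42 values examined in the 4 WT libraries, a single library lay farther from the others than Dixon's 95% limit allows. Chance flags about 1 in 20 independent values, but these values share libraries and some genes. Ins2 is a gene of the tissue check, and the tissue check shares Cpa1 with the acinar and duct genes. The share flagged thus cannot be set directly against that rate. Groups of 3 were not examined. Pou3f4 was 10.3 CPM in WT replicate 2 and 8.04 to 8.40 CPM in the other WT libraries. Nkx6-1 was 109 CPM in WT replicate 3, against 114.9 to 115.4 CPM, a small gap within a tight group. Nkx6-2 was 8.54 CPM in WT replicate 4, against 6.72 to 7.02 CPM. Ins2 was 779 CPM in WT replicate 4, against 429.2 to 460.6 CPM. In the same library the summed CPM was 11950 for the genes of the tissue check (6600 to 7252 in the others), 51260 for acinar and duct genes (25390 to 27820) and 1256 for liver genes (263.5 to 333.3). Hhex did not meet the limit, since its 4 WT values were spread along their whole range.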

How the results depend on the processing

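Over 17 alternatives for each of the 8 factors, 122 of 136 fold changes kept their direction and stayed short of the threshold, 0 passed it, and 14 changed sign. Irx2 and Mafa changed sign under none of them. The log2 fold change of Mnx1 was −0.0032 with library totals, −0.0053 with limma-voom and −0.14 with the replicate block, and ranged from −0.14 to 0.20 when each library was left out. That of Hhex was 0.21 with the replicate block, which leaves out WT replicate 4. Leaving out each library gave −0.0709 to 0.25 for Irx1, −0.24 to 0.10 for Pou3f4, −0.20 to 0.0595 for Nkx6-1 and −0.10 to 0.30 for Nkx6-2. Without both libraries highest in liver genes, a setting chosen after seeing the data, Pou3f4 was 0.0786, Nkx6-1 0.0616, Nkx6-2 0.38, Irx1 0.28, Mafa 0.46 and Hhex −0.0124; with limma-voom Hhex was −0.0458. The cause of these changes was not tested.

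The count of features called in the whole table was 1; it was 0 with DESeq2 size factors, library totals, a filter at 1 CPM or estimation that is not robust, 4 with no filter, 13 with DESeq2 and 13 with the replicate block, and 0 to 3 when each library was left out. Replicate numbers shared by the groups had correlated deviations of 0.284, 0.419 and 0.0597 for numbers 1, 2 and 3. For cKO replicates 1 and 2 the shared number gave the highest correlation, whereas cKO replicate 3 correlated best with WT replicate 2 (0.296). As the numbers did not match throughout, they were not taken as pairs, and the replicate block is given as an alternative. The alpha-minus-beta balance stayed within 1 SD (0.180) of its value in 13 of 13 alternatives, from −0.13 without cKO replicate 3 to 0.0804 without cKO replicate 2, so its sign is not resolved; a planned version with further lineage factors was not run. The lengths of the longest coding transcripts, chosen after seeing the data, moved Hhex, Nkx6-2 and Irx2 to 3.75, 5.60 and 3.90 CPM per kb in WT. Of the 8 factors, 6 had 27 to 211 counts per library; counting error was not separated from variation between embryos.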
